A study of Mus musculus with 8 samples.

Results

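The genes described here are 39 genes of the B cell antigen receptor and of the B cell lineage. They were chosen by symbol, from a list of receptor chains, surface proteins, signalling proteins and transcription factors, and all 39 were found among the 23284 symbols of the count table. The RNA came from the pancreas of mice with the genotype Dclk1-CreERT;tdtomato (strain CBA x C57BL/6J), in 4 libraries of Dclk1+ cells (numbered 1 to 4) and 4 libraries of Dclk1- cells (numbered 5 to 8). Both groups carry the same alleles, an inducible Cre recombinase named for Dclk1 and a red fluorescent reporter, and they differ by the label Dclk1 positive or Dclk1 negative. Dclk1 is a doublecortin-like kinase that marks tuft cells and rare epithelial cells, and the series title calls the Dclk1+ cells progenitors. The labels used here state no age, sex, tamoxifen treatment, sorting gate or number of mice, and the reporter marks any cell in which Cre has acted and its descendants. P-values therefore measure only the spread between these libraries, which may be technical.

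B cells recognize antigen through a membrane immunoglobulin that is held by the signalling chains encoded by Cd79a and Cd79b. When antigen binds, the kinases Lyn, Blk and Syk are switched on, the adaptor Blnk brings Btk and Plcg2 together, and calcium and lipid signals follow, while Cd22, Cd72 and Inpp5d hold the signal back. The transcription factors Ebf1 and Pax5 set up this machinery in the bone marrow, and Pou2af1, Pou2f2, Spib, Ikzf3 and Bach2 maintain it in mature B cells. In the pancreas, B cells are found in the lymph nodes embedded in the organ, in blood and as scattered cells.

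To show what the factors among the members could read near these genes, the bases before the annotated start were searched in 31 of the 39 genes that had an entry among the RefSeq promoters (GRCm38.p6). The letters searched, on both strands in the 250 bases before the start, were ATGCAAAT (the octamer read by the product of Pou2f2), TCCC and GGGA separated by any 2 bases (a site form read by the product of Ebf1) and GAGGAAGT (an Ets form read by the product of Spib and by related factors). These genes had 37 windows, and for 24 of the 37 the start was found in a GENCODE M21 transcript of the gene, which was not so for the window of Blnk. The Ets form was in 5 of 37 member windows (13.5%) against 2.44% of 32851 promoter windows. The octamer was in 1 of 37 (2.70%) against 1.60%, and the Ebf1 form in 1 of 37 (2.70%) against 0.779%. The 7 promoters with a match follow, 150 bases each up to the base before the start, 5′ to 3′ on the strand of the gene, with the match in capitals. No match overlapped another.
Inpp5d (chr1:87620162-87620311, plus strand): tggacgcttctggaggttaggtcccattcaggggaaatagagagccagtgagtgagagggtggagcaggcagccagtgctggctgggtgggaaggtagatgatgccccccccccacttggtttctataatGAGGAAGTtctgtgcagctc
Fcrl1 (chr3:87376237-87376386, plus strand): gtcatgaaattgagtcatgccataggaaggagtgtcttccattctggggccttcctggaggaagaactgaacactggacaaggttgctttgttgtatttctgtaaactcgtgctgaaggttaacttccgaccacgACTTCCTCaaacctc
Cd72 (chr4:43454627-43454776, minus strand): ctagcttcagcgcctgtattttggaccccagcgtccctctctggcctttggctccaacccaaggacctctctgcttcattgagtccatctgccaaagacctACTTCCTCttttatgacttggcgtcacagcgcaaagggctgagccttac
Cd37 (chr7:45238840-45238989, minus strand): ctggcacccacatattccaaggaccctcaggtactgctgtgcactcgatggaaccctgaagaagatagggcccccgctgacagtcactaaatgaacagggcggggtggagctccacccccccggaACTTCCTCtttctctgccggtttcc
Vav1 (chr17:57278950-57279099, plus strand): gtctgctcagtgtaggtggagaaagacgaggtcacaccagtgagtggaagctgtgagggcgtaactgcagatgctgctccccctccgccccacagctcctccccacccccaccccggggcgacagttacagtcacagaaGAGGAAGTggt
Cd22 (chr7:30879029-30879178, minus strand): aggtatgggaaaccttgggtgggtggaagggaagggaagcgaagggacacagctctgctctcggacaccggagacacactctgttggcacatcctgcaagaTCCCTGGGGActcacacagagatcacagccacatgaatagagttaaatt
Blnk (chr19:40994222-40994371, minus strand): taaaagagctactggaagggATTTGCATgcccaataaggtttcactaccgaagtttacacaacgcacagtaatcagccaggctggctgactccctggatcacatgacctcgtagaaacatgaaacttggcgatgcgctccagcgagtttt
The Ets form began 20 bases before the start in Inpp5d, 15 in Fcrl1, 49 in Cd72, 25 in Cd37 and 11 in Vav1. The Ebf1 form began 49 bases before the start of Cd22, and the octamer 130 bases before that of Blnk. A match is a description of letters, and binding was not measured.

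Total counts ran from 7990777 to 10282911 in Dclk1+ libraries and from 6353841 to 7242084 in Dclk1- libraries, so that 1 count was worth 0.102 to 0.193 CPM (counts per library size in edgeR, scaled by TMM). Dclk1 was at 131, 221, 53.3 and 17.9 CPM in Dclk1+ libraries 1 to 4 and at 7.35, 15.04, 14.9 and 2.67 CPM in Dclk1- libraries 5 to 8. The groups did not overlap for Dclk1, with library 4 close to the Dclk1- range. All Dclk1+ libraries were above the Dclk1- range in 10.7% of all genes tested. The log2 fold change of Dclk1 was 3.40 ± 0.82 (SE, edgeR adjusted p = 0.0503), so it did not pass the threshold of 0.05. Reads of the ribosomal RNA gene Rn45s made up 8.90% to 18.3% of counts in Dclk1+ libraries, and 9.34%, 9.92%, 34.2% and 26.1% in Dclk1- libraries 5 to 8. Libraries 7 and 8 thus stood apart from 5 and 6 within their group. Dclk1+ library 4 stood apart in its macrophage genes, with 411, 106, 1299 and 9241 summed CPM over 16 marker genes in Dclk1+ libraries 1 to 4, and 935, 1488, 1009.98 and 662 in Dclk1- libraries 5 to 8.

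The B cell genes were low in Dclk1+ cells. Together the 39 members took 0.176%, 0.0564%, 0.112% and 0.506% of all counts in Dclk1+ libraries 1 to 4, and 1.08%, 1.21%, 0.887% and 1.24% in Dclk1- libraries 5 to 8. Of the 39, all passed the filter on low counts, 37 had a negative log2 fold change and 2 (Ebf1 and Cd86) a positive one. The median log2 fold change of Dclk1+ over Dclk1- was -2.58, against -0.08 over all 13274 genes tested. In 30 of 39 members every Dclk1+ library was below every Dclk1- library, which held for 10.9% of all genes tested. In bulk RNA, fewer B cells, fewer other leukocytes that share some of these genes, and less of these RNAs per cell cannot be told apart.

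**Figure D1:**
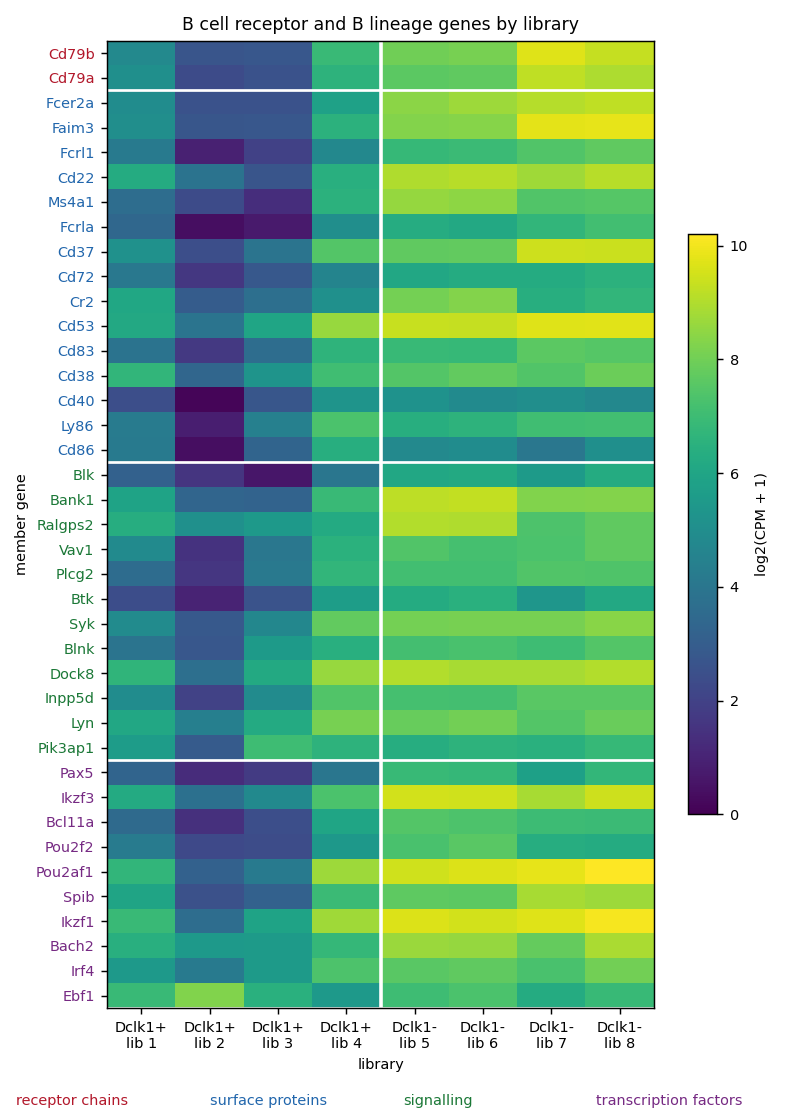
Level of each of the 39 member genes (rows, grouped and coloured by role, ordered by fold change within a role) in the 4 Dclk1+ libraries (left) and the 4 Dclk1- libraries (right), as log2(CPM + 1). Most rows are dark on the left and bright on the right, library 4 is the brightest Dclk1+ column in 35 of 39 rows, and Ebf1 is brightest in library 2.

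By edgeR's quasi-likelihood test, adjusted over all 13274 genes, 6 of 39 members fell in Dclk1+ cells (adjusted p under 0.05), 0 rose and 33 did not pass. The background was 1.02% of all genes called lower and 2.47% called higher, 3.49% in either direction. The 6 were Fcer2a, Cd22, Ralgps2, Pax5, Ikzf3 and Bach2, with adjusted p from 0.0466 to 0.0492, so that all 6 calls lay just inside the threshold. The smallest adjusted p over all 13274 genes was also 0.0466, so this held for every gene called and was not particular to the members. Just outside it were Faim3 at 0.0502, and Cd72 and Fcrl1 at 0.0503 each. At the looser level of 0.1, 23 of 39 were lower, against 8.05% of all genes, and 29 had an unadjusted p under 0.05 with a negative fold change, against 13.6%. The count depended on the libraries: without Dclk1+ library 4 it was 33 of 39, against 6.23% of all genes. Without any 1 of the other 7 libraries it was 0 of 39 by edgeR, and 0% of all genes were called lower in each case. Even so, 20 to 31 members then had an unadjusted p under 0.05 with a negative fold change, and 0 with a positive one. The share of all genes lower at that level was 6.48% to 11.9%. On all 8 libraries DESeq2 called 27 lower of the 37 members to which it gave a p (not Cd40 or Syk), against 8.53% of all genes, and limma-voom 26, against 3.58%. In edgeR it was 14 with no low-count filter (1.43% of all genes), 11 with a stricter one (2.35%), 10 with RLE scaling (1.45%), 8 without Rn45s (1.13%), 4 with upper-quartile scaling (0.723%), 4 with robust dispersion (0.535%) and 0 with total counts alone (0%). Cd22 and Ikzf3 lost their calls under both settings with 4.

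The receptor chains were lowest in Dclk1+ libraries 2 and 3. Cd79a was at 32.6, 4.08, 4.96 and 94.8 CPM in Dclk1+ libraries 1 to 4, against 196, 209, 595 and 499 CPM in Dclk1- libraries 5 to 8. Cd79b was at 26.5, 5.51, 5.84 and 119 CPM in Dclk1+ libraries 1 to 4, against 253, 275, 829.96 and 637 CPM in Dclk1- libraries 5 to 8. No Dclk1+ library reached the Dclk1- range for either chain, and library 4 came nearest. The log2 fold changes were -3.46 ± 0.998 for Cd79a and -3.67 ± 1.03 for Cd79b (SE), with edgeR adjusted p of 0.0642 and 0.0608, so neither passed. Within the Dclk1- group, libraries 7 and 8 held over 2 times the CPM of libraries 5 and 6 for both chains. The ratio of Cd79a to Cd79b in CPM was close in 7 of 8 libraries, at 0.741, 0.849 and 0.797 in Dclk1+ libraries 2 to 4 and 0.717 to 0.783 in the Dclk1- libraries, and was 1.23 in Dclk1+ library 1.

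Of the 15 surface proteins, Fcer2a and Cd22 fell and 13 did not pass. Fcer2a encodes the low-affinity IgE receptor of mature B cells, known as CD23. It was at 29.7, 4.9997, 4.96 and 56.7 CPM in Dclk1+ libraries 1 to 4, against 346, 417, 535 and 604 CPM in Dclk1- libraries 5 to 8. The lowest Dclk1- library had over 6 times the CPM of the highest Dclk1+ library. The log2 fold change of Fcer2a was -4.30 ± 0.83 (SE, edgeR adjusted p = 0.0469), the most negative among the members. Cd22, which binds sialic acids and restrains the receptor, was at 76.7, 13.7, 5.51 and 84.7 CPM in Dclk1+ libraries 1 to 4, against 502, 549, 424 and 553 CPM in Dclk1- libraries 5 to 8. Its Dclk1- values were close together and its Dclk1+ values were spread over more than 10-fold. The log2 fold change of Cd22 was -3.49 ± 0.80 (edgeR adjusted p = 0.0492).

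Faim3 encodes the Fc receptor for IgM, now named Fcmr. It was at 32.2, 5.71, 5.73 and 91.99 CPM in Dclk1+ libraries 1 to 4, against 316, 323, 884 and 894 CPM in Dclk1- libraries 5 to 8 (log2 fold change -4.15 ± 0.98, edgeR adjusted p = 0.0502). The groups did not overlap, and libraries 7 and 8 were again the highest. Cd53, a tetraspanin of most leukocytes, was at 70.3, 14.2, 62.8 and 395 CPM in Dclk1+ libraries 1 to 4, against 650.2, 626, 843 and 866 CPM in Dclk1- libraries 5 to 8 (log2 fold change -2.46 ± 0.85, edgeR adjusted p = 0.0907). Here library 4 alone came near the Dclk1- range. The complement receptor gene Cr2, the inhibitory receptor gene Cd72, the Fc receptor relatives Fcrl1 and Fcrla, the CD20 gene Ms4a1, the tetraspanin gene Cd37, the activation marker Cd83 and the ectoenzyme gene Cd38 also had no overlap between groups. Their log2 fold changes ran from -3.71 for Fcrl1 to -1.49 for Cd38, and none passed. Some low values rested on few reads, with 3 counts each for Fcrla and Cd86 and 1 count for Cd40 in Dclk1+ library 2.

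The 3 surface members whose groups overlapped were Cd40, Cd86 and Ly86. Cd86, a costimulatory ligand for T cells that B cells share with macrophages and dendritic cells, was at 17.4, 0.306, 8.82 and 83.99 CPM in Dclk1+ libraries 1 to 4, against 27.03, 30.2, 15.5 and 33.2 CPM in Dclk1- libraries 5 to 8. Library 4 was above every Dclk1- library, and libraries 2 and 3 were below every one. The log2 fold change of Cd86 was 0.06 ± 1.05 (edgeR adjusted p = 0.977), and without library 4 it turned to -1.42. Ly86 encodes the protein that pairs with the Toll-like receptor relative Cd180 on B cells and macrophages. It was at 18.1, 0.816, 20.7 and 157 CPM in Dclk1+ libraries 1 to 4, against 83.005, 96.8, 135 and 136 CPM in Dclk1- libraries 5 to 8 (log2 fold change -1.20 ± 1.05, edgeR adjusted p = 0.453). Cd40, which receives T cell help, reached 37.8 CPM in library 4 and at most 5.62 CPM in the other Dclk1+ libraries, against 26.2 to 36.1 CPM in Dclk1- libraries.

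Among the 12 signalling genes Ralgps2 fell and 11 did not pass. Ralgps2, an exchange factor for the GTPase Ral, was at 79.9, 34.1, 44.7 and 74.9 CPM in Dclk1+ libraries 1 to 4, against 519.8, 509, 163 and 207 CPM in Dclk1- libraries 5 to 8. The groups did not overlap, although libraries 7 and 8 held less than 0.5 times the CPM of libraries 5 and 6. The log2 fold change of Ralgps2 was -2.58 ± 0.50 (SE, edgeR adjusted p = 0.0469). The kinase gene Blk, largely restricted to B cells among blood cells, was at 7.99, 1.94, 0.551 and 15.1 CPM in Dclk1+ libraries 1 to 4, against 67.7, 71.9, 45.6 and 76.1 CPM in Dclk1- libraries 5 to 8 (log2 fold change -3.35 ± 0.83, edgeR adjusted p = 0.0521). The scaffold gene Bank1 was at 58.7, 9.08, 8.59 and 118 CPM in Dclk1+ libraries 1 to 4, against 587, 612, 307 and 319 CPM in Dclk1- libraries 5 to 8 (log2 fold change -3.23 ± 0.85, edgeR adjusted p = 0.0547). For both genes the highest Dclk1+ library, number 4, held less than 0.5 times the CPM of the lowest Dclk1- library.

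The other signalling genes are also known from myeloid cells or other leukocytes. Lyn, the Src family kinase that starts and restrains receptor signals, was at 67.5, 19.9, 75.4 and 274 CPM in Dclk1+ libraries 1 to 4, against 227, 263, 179 and 230.3 CPM in Dclk1- libraries 5 to 8 (log2 fold change -1.04 ± 0.65, edgeR adjusted p = 0.296). Library 4 was above all 4 Dclk1- libraries. Pik3ap1, the adaptor that recruits PI 3-kinase, was at 49.2, 6.63, 130.02 and 94.99 CPM in Dclk1+ libraries 1 to 4, against 80.7, 96.1, 89.04 and 114 CPM in Dclk1- libraries 5 to 8 (log2 fold change -0.43 ± 0.67, edgeR adjusted p = 0.681), and library 3 was the highest of all 8. Dock8, an exchange factor for Cdc42, was at 99.995, 12.2, 71.5 and 393 CPM in Dclk1+ libraries 1 to 4, against 518, 466, 471 and 523 CPM in Dclk1- libraries 5 to 8 (log2 fold change -1.78 ± 0.81, edgeR adjusted p = 0.162), with no overlap. The kinase genes Syk and Btk, the adaptor gene Blnk, the phospholipase gene Plcg2, the exchange factor gene Vav1 and the phosphatase gene Inpp5d had log2 fold changes from -2.32 for Vav1 to -1.52 for Inpp5d. Of these 6, Btk and Inpp5d overlapped between groups. The median log2 fold change was -2.13 for the 12 signalling genes and -2.71 for the 15 surface proteins, and this difference was not tested.

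Of the 10 transcription factor genes Pax5, Ikzf3 and Bach2 fell and 7 did not pass. Pax5, which commits cells to the B lineage and is kept on until plasma cells form, was at 8.77, 1.43, 2.42 and 14.9 CPM in Dclk1+ libraries 1 to 4, against 117, 109.9, 54.3 and 106 CPM in Dclk1- libraries 5 to 8. Every Dclk1+ library was below every Dclk1- library. The log2 fold change of Pax5 was -3.82 ± 0.72 (SE, edgeR adjusted p = 0.0469). Ikzf3, the lymphocyte zinc finger factor Aiolos, was at 73.6, 12.4, 27.7 and 159 CPM in Dclk1+ libraries 1 to 4, against 717, 705, 469 and 685 CPM in Dclk1- libraries 5 to 8 (log2 fold change -3.24 ± 0.73, edgeR adjusted p = 0.0492). Bach2, a repressor that holds back plasma cell formation, was at 85.1, 44.1, 45.7 and 111 CPM in Dclk1+ libraries 1 to 4, against 403, 384, 221 and 476 CPM in Dclk1- libraries 5 to 8. The groups did not overlap, and Dclk1+ libraries 2 and 3 were at 11.9% and 12.3% of the Dclk1- mean. Its log2 fold change of -2.37 ± 0.42 had the smallest SE among the members (edgeR adjusted p = 0.0466).

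Pou2af1, a coactivator of octamer-binding factors, was at 103, 7.96, 17.2 and 419 CPM in Dclk1+ libraries 1 to 4, against 703, 804, 894 and 1176 CPM in Dclk1- libraries 5 to 8 (log2 fold change -2.71 ± 1.05, edgeR adjusted p = 0.117). Library 4 was at 46.8% of the Dclk1- mean and library 2 at 0.890%. Irf4, which acts in activated B cells, T cells and dendritic cells, was at 43.1, 17.1, 46.3 and 162 CPM in Dclk1+ libraries 1 to 4, against 189.7, 207, 155 and 263 CPM in Dclk1- libraries 5 to 8 (log2 fold change -1.60 ± 0.61, edgeR adjusted p = 0.110), and library 4 lay within the Dclk1- range. Ikzf1, Pou2f2, Spib and Bcl11a had no overlap between groups and log2 fold changes from -2.89 for Bcl11a to -2.46 for Ikzf1, and none passed. Ebf1 showed another order of libraries. It was at 119, 303, 86.8 and 43.9 CPM in Dclk1+ libraries 1 to 4, against 129, 159.8, 77.3 and 117 CPM in Dclk1- libraries 5 to 8, and was highest in library 2, where 33 of the 39 members had their lowest Dclk1+ level. The log2 fold change of Ebf1 was 0.19 ± 0.54 (95% interval -1.02 to 1.41, edgeR adjusted p = 0.827), and without library 2 it turned to -0.55. Ebf1 is also known from mesenchymal and fat cells. The summed CPM of 10 fibroblast genes, also highest in library 2, was 11777, 45032, 18841 and 7033 in Dclk1+ libraries 1 to 4 and 1313, 3635, 9417 and 1662 in Dclk1- libraries 5 to 8, and its part in the Ebf1 level was not tested.

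**Figure D2:**
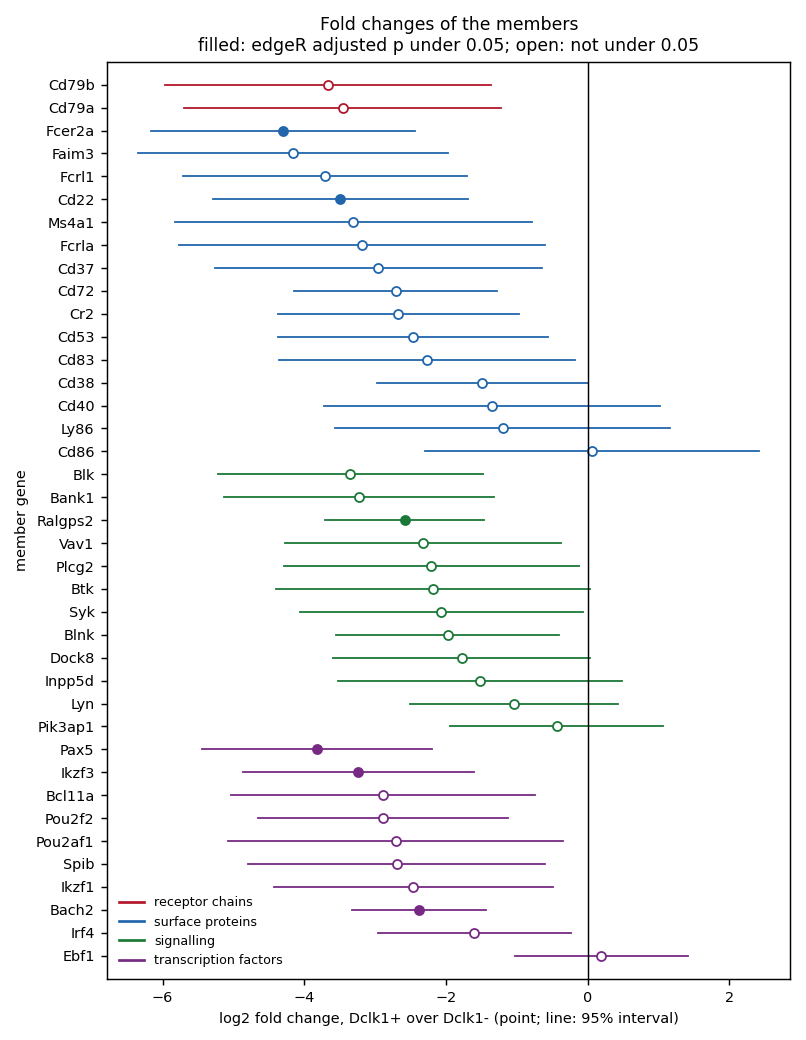
Log2 fold change of each member, Dclk1+ over Dclk1- (points), with its 95% interval (lines), coloured by role. The 6 filled points have an edgeR adjusted p under 0.05, and the points of Ebf1 and Cd86 alone lie right of 0.

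The Dclk1+ libraries differed in how much of the B cell genes they held. As a percent of the Dclk1- mean of each gene, the median over the 39 members came to 12.9%, 1.504%, 7.37% and 39.5% for libraries 1 to 4 in turn. Library 4 had the highest Dclk1+ level for 35 members and library 2 the lowest for 33. In library 4 the members spread from 11.9% for Fcer2a to 317% for Cd86. The lowest there were Fcer2a, Faim3, Pax5, Cd22, Fcrl1 and Cr2, all under 20%. The 6 members above 100% were Pik3ap1, Inpp5d, Lyn, Cd40, Ly86 and Cd86. The median in library 4 was 24.6% for the 2 receptor chains, 34.0% for surface proteins, 37.3% for transcription factors and 69.9% for signalling genes.

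The summed macrophage genes given above were highest in the same library, although 1 of the 16, the monocyte gene Ly6c2, was at 7.55, 2.04, 4.19 and 24.2 CPM in Dclk1+ libraries 1 to 4, against 23.7, 16.5, 166 and 135 CPM in Dclk1- libraries 5 to 8. Lyz2, the macrophage lysozyme gene, was at 116, 27.3, 587 and 3789 CPM in Dclk1+ libraries 1 to 4, against 403, 703, 572 and 271 CPM in Dclk1- libraries 5 to 8. Mrc1, the mannose receptor gene, was at 90.7, 11.9, 125 and 1010.4 CPM in Dclk1+ libraries 1 to 4, against 117, 174, 4.64 and 15.7 CPM in Dclk1- libraries 5 to 8. Of the 16 macrophage genes tested, 15 had a positive and 1 a negative fold change, 0 were called, all overlapped between groups and none was at 0 in any library. Their part in the levels of the B cell genes was not tested. Without library 4, 36 of 39 members had every Dclk1+ library below every Dclk1- library, against 19.5% of all genes, and the 3 exceptions were Cd86, Pik3ap1 and Ebf1. The median log2 fold change of the members was then -3.71.

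**Figure D3:**
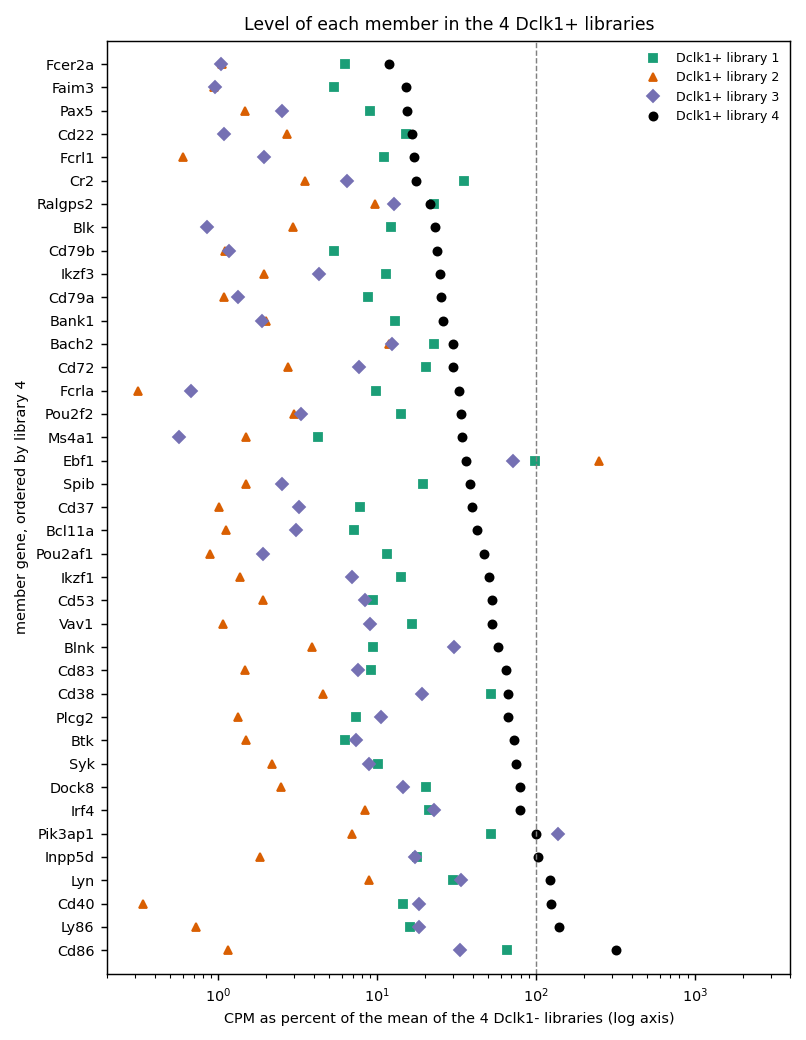
CPM of each member in the 4 Dclk1+ libraries as a percent of its mean in the 4 Dclk1- libraries (log axis, dashed line at 100%), with members ordered by library 4. Library 4 spreads from 11.9% to 317%, and 37 of 39 points of library 2 lie below 10%, with Ebf1 at 251%.

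**Figure D4:**
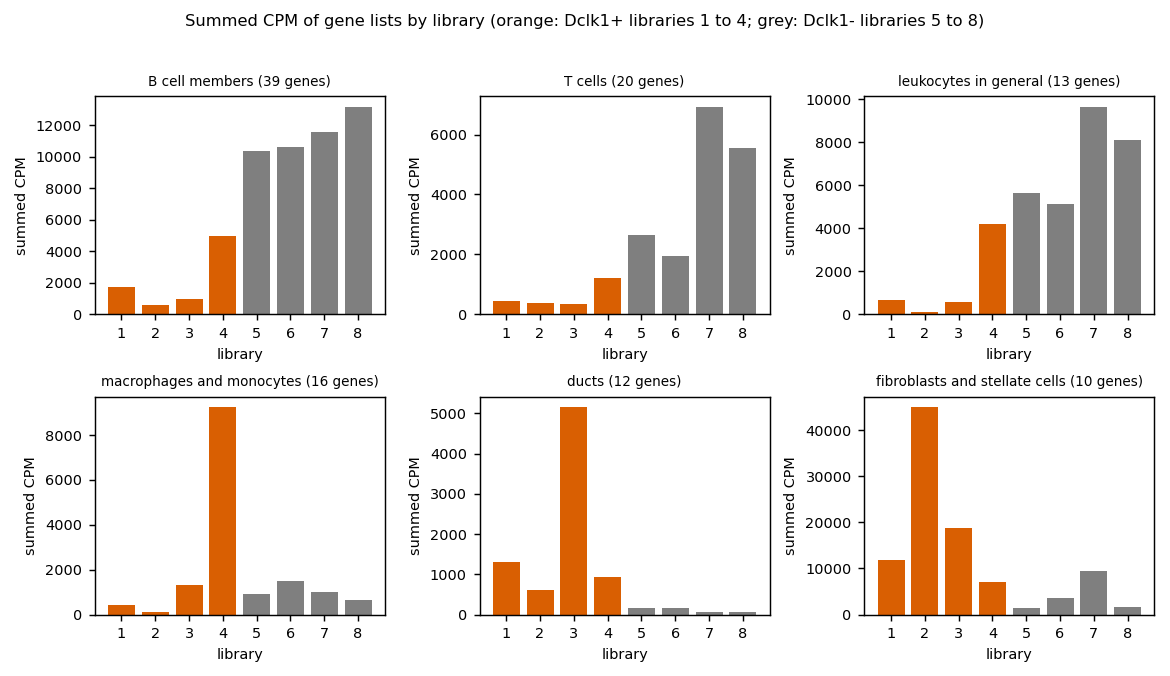
Summed CPM of the 39 members and of 5 lists of marker genes in each library, with Dclk1+ libraries 1 to 4 in orange and Dclk1- libraries 5 to 8 in grey. The B cell members and T cell genes are higher in every Dclk1- library, macrophage genes peak in library 4, duct genes in library 3 and fibroblast genes in library 2.

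The Dclk1- libraries differed in their balance of short and long members. Compared with libraries 5 and 6, libraries 7 and 8 held more RNA of the short members Cd79a, Cd79b, Faim3 and Cd37 and less of the long members Cr2, Ralgps2 and Pou2f2. Not every member followed this. Btk, with 2540 bases against 2541 for Cd37, was at 76.8, 87.8, 40.2 and 70.1 CPM in Dclk1- libraries 5 to 8. Bach2, the longest member, was highest in library 8 at 476 CPM. Cr2 was at 67.03, 6.73, 12.3 and 33.7 CPM in Dclk1+ libraries 1 to 4, against 264, 314, 82.3 and 103 CPM in Dclk1- libraries 5 to 8. Across the 39 members, Spearman's rho between the longest annotated transcript and the log2 ratio of CPM to the Dclk1- mean was 0.43, 0.55, 0.43 and 0.11 in Dclk1+ libraries 1 to 4, and 0.67, 0.59, -0.61 and -0.58 in Dclk1- libraries 5 to 8. Over 13118 genes with a length it had the same signs, with 0.21, 0.18, 0.15 and 0.04 in Dclk1+ libraries and 0.29, 0.34, -0.30 and -0.19 in Dclk1- libraries. The points of a panel share a library, and all share the Dclk1- mean, which libraries 5 to 8 themselves make up, so these values are a description. Libraries 7 and 8 were also those with the largest Rn45s share, and the part of either measure in the fold changes was not tested. The order of the members by CPM was closest within the pairs 5 and 6 (rho 0.99) and 7 and 8 (rho 0.96).

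**Figure D5:**
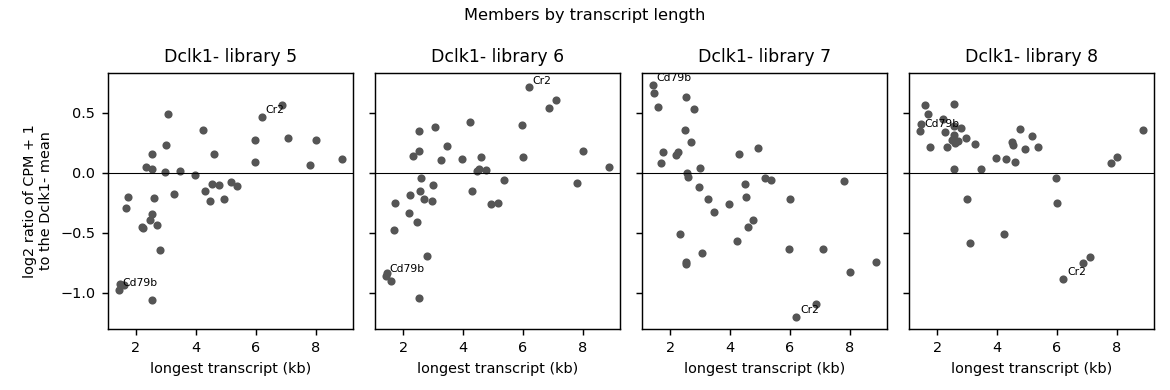
Log2 ratio of each member's CPM + 1 to the Dclk1- mean + 1 (vertical) against its longest transcript in kilobases (horizontal), 1 panel for each Dclk1- library. The cloud slopes up in libraries 5 and 6 and down in libraries 7 and 8, where Cd79b is high and Cr2 low.

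Of 52 other genes of B cell receptor signalling, Nfatc1 and Hvcn1 fell, Gab1 rose and 49 did not pass, with a median log2 fold change of -1.08. Over all genes 1.02% were called lower and 2.47% higher, so the 1 higher call is no more than the background. In 24 of the 52 all Dclk1+ libraries were below the Dclk1- range, against 10.9% of all genes, and in 2 they were all above it, against 10.7%. Nfatc1, a calcium-driven transcription factor, was at 51.8, 51.7, 52.1 and 151 CPM in Dclk1+ libraries 1 to 4, against 286, 260.2, 289.5 and 384 CPM in Dclk1- libraries 5 to 8 (log2 fold change -1.99 ± 0.43, edgeR adjusted p = 0.0487). Hvcn1, the proton channel that sustains oxidant production, was at 32.6, 8.88, 13.7 and 85.8 CPM in Dclk1+ libraries 1 to 4, against 208, 189, 679 and 479.9 CPM in Dclk1- libraries 5 to 8 (log2 fold change -3.46 ± 0.79, edgeR adjusted p = 0.0492). Gab1, a docking protein used by growth factor receptors in many tissues, was at 105, 101, 151 and 46.6 CPM in Dclk1+ libraries 1 to 4, against 13.96, 21.96, 5.79 and 2.004 CPM in Dclk1- libraries 5 to 8 (log2 fold change 3.20 ± 0.69, edgeR adjusted p = 0.0487).

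Cd81, which was chosen after its values were seen and encodes a tetraspanin of many cell types that joins Cr2 in the coreceptor complex, was at 463, 511, 549.7 and 394 CPM in Dclk1+ libraries 1 to 4, against 131, 190.1, 280.5 and 103 CPM in Dclk1- libraries 5 to 8 (log2 fold change 1.44 ± 0.38, edgeR adjusted p = 0.0542). Every Dclk1+ value of Cd81 was above the Dclk1- range, and the gene did not pass.

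Genes of other B cell stages and functions differed by list. Of 33 genes for survival, homing and cytokine or pattern receptors, 23 had all Dclk1+ libraries below the Dclk1- range, against 10.9% of all genes, and the median log2 fold change was -2.50. Of 18 genes listed for pro-B and pre-B cells, 13 passed the filter on low counts. Of these 13, Mme rose and 12 did not pass, with a median of 0.74. The median stands for no shared direction, since 6 fold changes were negative and 7 positive. Among the negative ones were Vpreb3 at -2.57, Il7r at -2.64 and Lef1 at -3.57 on the log2 scale. Mme encodes the peptidase neprilysin, which epithelia also make, and was at 65.8, 12.96, 152 and 25.1 CPM in Dclk1+ libraries 1 to 4, against 0.441, 2.43, 1.16 and 0.501 CPM in Dclk1- libraries 5 to 8 (log2 fold change 5.77 ± 0.94, edgeR adjusted p = 0.0466). Of 10 germinal center genes only the member Pax5 was called (median -0.56). Of 10 plasma cell genes 0 were called by edgeR (median -0.24), and the joining chain gene Igj was at 6.44, 4.08, 23.1 and 429.5 CPM in Dclk1+ libraries 1 to 4, against 256, 155, 149.9 and 74.98 CPM in Dclk1- libraries 5 to 8 (log2 fold change -0.46 ± 1.25, edgeR adjusted p = 0.821). The secretory factor gene Xbp1 differed by 0.39 ± 0.27 on the log2 scale (edgeR adjusted p = 0.340). Of 11 immunoglobulin chain symbols looked for, 0 were in the count table, so the chain genes themselves were not analysed here.

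Other leukocyte and tissue markers are given by list, and the shares over all genes were 1.02% called lower, 2.47% called higher and 10.9% with all Dclk1+ libraries below. Of 19 T cell genes, Cd247, Lat and Zap70 fell, 0 rose and 17 had all Dclk1+ libraries below the Dclk1- range, with a median log2 fold change of -3.32. Of 13 general leukocyte genes 0 passed and all had a negative fold change (median -2.46), with Ptprc, the common leukocyte antigen gene, at 185, 23.7, 107 and 601 CPM in Dclk1+ libraries 1 to 4, against 2284, 2050.5, 841 and 1022 CPM in Dclk1- libraries 5 to 8. Laptm5, a lysosomal protein of leukocytes, had a log2 fold change of -1.91 ± 1.06. Of the 10 natural killer, 10 dendritic, 5 neutrophil and mast cell and 3 red cell genes tested 0 were called, and their medians were -2.14, 0.69, 0.79 and -5.55. The summed CPM of all counted dendritic genes, and of neutrophil and mast cell genes, peaked in Dclk1+ library 4, at 950 and 901. In the other Dclk1+ libraries it was at most 237 and 72.4, against 318 to 512 and 65.2 to 240 in Dclk1- libraries. The red cell sum was 2192 and 2433 CPM in Dclk1- libraries 7 and 8, and 11.3 to 51.3 CPM in the other libraries. Of 11 duct genes 5 rose, among them Sox9, Spp1 and Bicc1, and 0 fell (median 3.83). None of 10 acinar, 10 fibroblast or 9 endothelial genes was called, with medians of 0.22, 2.38 and 1.67.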

How the data were processed

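RNA was sequenced from 4 Dclk1+ and 4 Dclk1- pancreas cell libraries. The deposited values are raw read counts per gene symbol. Per the submitters' processing notes, the authors used bcl2fastq 1.8.4, HTSeq 0.6.1 and the mm9 build for all libraries, Bowtie2 2.0.0 with TopHat2 2.0.4 for library 5, and Bowtie 0.12.7 with TopHat for the others, so aligner and library cannot be told apart for library 5. The strand setting of the counting was not given in the sources used here. Counts were fitted with edgeR 4.0.16 in R 4.3.3 (filterByExpr with a minimum count of 10 and a minimum total of 15, TMM scaling, quasi-likelihood test of group alone, Benjamini-Hochberg adjustment over 13274 genes, threshold 0.05). An SE is the log2 fold change divided by the square root of F. Alternatives used limma 3.58.1, DESeq2 1.42.0, other filters and scalings, and each library left out. No 2 libraries of a group agreed within sampling noise (chi-square per degree of freedom at least 19.8). Members and lists were chosen with earlier results of these data known. All 39 members are named or counted. Given in every library are those called and, in each role, the member of highest mean CPM and the 2 with the largest and the 2 with the smallest fold change. From other lists the rule takes up to 3 called genes by mean CPM, or the top 2 where a list had no call, and values are given where a result turns on them. Lengths are the longest GENCODE M21 transcript. Promoter sequences are RefSeq's (GRCm38.p6), and their coordinates were not set against the mm9 counts. Some genes that the naming rule or the pathway lists would bring in are not reported here.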

Additional observations from a re-analysis of the deposited data

Results flagged for a closer look

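In 142 groups of 4 libraries, 1 for each gene and group examined, 22 libraries stood apart from the other three by Dixon's test (the gap to the nearest library over the range). The test flags about 1 in 20 groups when values are independent and normally distributed. These groups hold untransformed CPM of genes that share the same libraries. That rate therefore gives no expected number of flags here, and the flags are a description. Among the members there were 12 such values, and in 10 of them Dclk1+ library 4 was the high one: Ms4a1 at 93.2 CPM, Cd53 at 395 CPM, Cd40 at 37.8 CPM, Cd83 at 98.8 CPM, Ly86 at 157 CPM, Syk at 214 CPM, Btk at 49.996 CPM, Plcg2 at 103 CPM, Inpp5d at 172 CPM and Bcl11a at 62.6 CPM. The other two were Dclk1- libraries: Syk was high in library 8 at 333 CPM, and Ikzf3 was low in library 7 at 469 CPM.

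Outside the members, Dclk1+ library 4 was also far above the other Dclk1+ libraries for Lyz2 at 3789 CPM, Mrc1 at 1010.4 CPM, Ccr9 at 43.8 CPM and Laptm5 at 1185 CPM. The same held for S100a8 at 201 CPM, S100a9 at 445 CPM, Igj at 429.5 CPM and Nfatc1 at 151 CPM. Spp1 stood apart in Dclk1+ library 3 at 3259 CPM, and Fbn1 in Dclk1+ library 2 at 14230 CPM.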

How the results depend on the processing

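The number of members called lower was 14 with no low-count filter, 11 with a stricter one, 10 with RLE scaling, 4 with upper-quartile scaling and with robust dispersion, 8 without Rn45s, 27 with DESeq2, 26 with limma-voom and 0 with total counts alone. It ran from 0 to 33 when 1 library was left out, and was 0 without both Dclk1- libraries 7 and 8, an alternative chosen after seeing the data, where 14 members had an unadjusted edgeR p under 0.05 with a negative fold change, against 8.81% of all genes. With total counts alone 28 had one, against 10.9%. No setting called a member higher, and none gave an unadjusted p under 0.05 in that direction. Over all genes, 328 were called higher and 135 lower. The higher and lower counts were 793 and 264 with no filter, 875 and 245 with a stricter one, 2290 and 1132 with DESeq2, 185 and 71 with robust dispersion, and 0 and 0 both with total counts alone and without libraries 7 and 8. Genes called higher numbered 665 with RLE scaling and 543 without Rn45s, and limma-voom called 475 lower. Leaving out 1 library gave 0 to 1640 higher and 0 to 841 lower. The median log2 fold change of the members stayed between -3.71 and -2.24 under these leave-outs. Cd86 turned to -1.72 with limma-voom, -1.42 without Dclk1+ library 4 and -0.14 without Dclk1- library 7, and was at most 0.47 in the leave-outs, without Dclk1+ library 3. Ebf1 turned to -0.11 with limma-voom, -0.55 without Dclk1+ library 2 and -0.0033 without libraries 7 and 8, and was at most 0.62, without Dclk1+ library 4. The cause was not tested. No paired analysis was made, because the labels state no animal or pairing between the groups.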

Other observations

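Cd180, whose product pairs with that of Ly86 and which was chosen after its values were seen, was at 63.8, 8.88, 48.5 and 350.2 CPM in Dclk1+ libraries 1 to 4, against 457, 520.3, 414 and 515 CPM in Dclk1- libraries 5 to 8. Alas2, which starts heme synthesis in red cell precursors, was at 22.8, 9.59, 8.70 and 17.8 CPM in Dclk1+ libraries 1 to 4, against 24.2, 36.1, 1489.95 and 1205 CPM in Dclk1- libraries 5 to 8, and was high in libraries 7 and 8 alone.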
